A study of Homo sapiens with 8 samples.

Results

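Translation initiation factors bring the small ribosomal subunit, the initiator tRNA and the mRNA together and find the start codon, and elongation factors then deliver aminoacyl-tRNA and move the ribosome along the coding sequence. They are among the most heavily translated housekeeping genes of human cells, and many belong to large complexes such as eIF2, eIF2B and eIF3 whose subunits are made on separate ribosomes. TRiC (also called CCT) is the ring-shaped chaperonin of the cytosol, prefoldin (PFD) is the chaperone that hands substrates to it, and both can bind a polypeptide while the ribosome is still making it. The question put to the data here was how footprints of the translation factor genes were distributed between all ribosomes and the ribosomes held by each chaperone.

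The genes were chosen by symbol: protein-coding genes beginning EIF1 to EIF6 or EEF1 and EEF2, without the kinases EIF2AK and EEF2K, and with at least 100 counts summed over the 4 input libraries. Of 66 protein-coding genes with such a symbol, 56 passed this minimum, out of 12697 protein-coding genes that did so and 60664 gene identifiers in all. The footprints came from the human osteosarcoma line U-2 OS and made up 8 libraries, with 2 replicates in each of 4 groups, an input and a pulldown for TRiC and an input and a pulldown for PFD. The TRiC libraries came from a monoclonal line with a HaloTag knocked into a loop of the subunit CCT4, and the PFD libraries from another monoclonal line with the tag at the end of the subunit PFDN4, so that cell line and tagged chaperone cannot be told apart. All groups received cycloheximide at 100 µg per ml for 1 min and the crosslinker DSP at 2 mM for 30 min. The input is all ribosomes, and the pulldown those recovered through the tag.

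The libraries held between 9523128 and 32637658 counts, and the translation factor genes took 1.08 and 1.13% of them in TRiC inputs, 0.974 and 0.917% in TRiC pulldowns, and 1.56 to 1.58% in all 4 PFD libraries. Of 6 genes listed for a mesenchymal line, VIM, SPARC, FN1, S100A6 and RUNX2 were present in every library, at 29.3 counts per 1000000 (CPM) or more, whereas the collagen gene COL1A2 stayed at or below 1.98 CPM. Among genes of other cell types, CDH1, PTPRC and ALB did not exceed 0.757 CPM, PECAM1 had at most 68 counts in any library, EPCAM ranged from 0.108 to 18.2 CPM, and the keratin gene KRT8 from 42.3 to 248 CPM.

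Several translation factor mRNAs carry a terminal oligopyrimidine tract, a cap-adjacent C followed by a run of pyrimidines through which mTOR signalling controls their translation. RefSeq start sites (GRCh38.p14) matched 45 of the 56 genes, and 13 of these, or 28.9%, had at least 1 listed start with C at the first base and 4 or more further C or T directly after it on the coding strand, against 6.33% of 15333 protein-coding genes. The windows below, each with 8 bases before and 20 from the start, show 8 of these 13 genes, with the pyrimidine run from the start in capitals, followed for contrast by EIF4E and EIF1, which had no such run at any listed start.
EEF1A1, chr6:73521013-73521040, minus strand: tgaacgttCTTTTTCgcaacgggtttgc
EEF2, chr19:3985444-3985471, minus strand: tcagcgttCTCTTCCgccgtcgtcgccg
EEF1B2, chr2:206159887-206159914, plus strand: cttcgggtCCTTTTTCCTCTCTTCagcg
EIF3K, chr19:38619180-38619207, plus strand: tccaccacCTCTTCCTgttcccgtcctt
EIF3D, chr22:36529147-36529174, minus strand: catgtttcCTCTTTTCCTggtttctcaa
EIF3F, chr11:7987329-7987356, plus strand: tccgcctcCTTCTTTCTCgacaagatgg
EIF4A2, chr3:186783569-186783596, plus strand: gccgctgtCTTTTCagtcgggcgctgag
EIF2S3, chrX:24054948-24054975, plus strand: tttccttcCTCTTTTggcaacatggcgg
EIF4E, chr4:98929114-98929141, minus strand: gagcggttgtgcgatcagatcgatctaa
EIF1, chr17:41688877-41688904, plus strand: gcccctctgccccagtcactgagccgcc

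Ribosomes translating these genes were mostly less abundant in the TRiC pulldown than in the matching input. Among the 56 genes, 20 fell and 3 rose at an adjusted p under 0.05 (edgeR quasi-likelihood test over 17934 genes), and the remaining 33 did not pass. Over all genes tested, 10.6% fell and 8.64% rose. The median log2 fold change of pulldown over input was -0.23 for the translation factor genes and -0.0032 for all genes tested. With only genes of at least 100 counts in every library, the median of the translation factor genes was -0.13. That filter also resets the library scale, and the median of all genes under it was not counted. Both pulldowns lay below both inputs for 36 of the 56 genes, against 31.2% of all genes tested, and above both inputs for 7, against 29.3%. The changes were modest in size, since EEF1A2 fell by 34.7% and EEF1A1 rose by 52.7%, the furthest of the genes that passed.

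The count of calls depended on the libraries and on the scaling. Leaving out TRiC input replicate 1 left 8 genes lower and 2 higher, as did leaving out TRiC input replicate 2, while 3.76 and 4.97% of all genes were then lower and 4.77 and 3.99% higher. When a library is left out, the spread of that group rests on the other group alone. Library totals as the scale gave 8 lower and 4 higher, and a cyclic loess scale 9 lower and 5 higher. A fit that shared 1 estimate of spread across all 8 libraries, with a common dispersion of 0.223 in place of 0.0153, called 0 genes with edgeR, while 13 were lower and 4 higher at an unadjusted p under 0.05 and DESeq2 on the TRiC libraries called 19 lower and 3 higher. Apart from that shared fit, EEF1A1, EEF1A2, EEF2, EIF1, EIF3G, EIF3I, EIF3K and EIF4EBP1 passed under each alternative tried. Over all 12 alternatives, EIF3L lost its call in 9 and EIF6 in 7. EEF1B2, EIF2B1, EIF2B2, EIF3H, EIF4H and EIF5A lost theirs in 6 each. The left-out libraries named below for these genes are only part of those. With at least 100 counts in every library, 17 of 50 translation factor genes were lower, against 12.7% of the 11166 genes tested that way. Shares over all genes were not counted for the other scales, the shared fit or DESeq2 on the TRiC libraries.

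**Figure D1:**
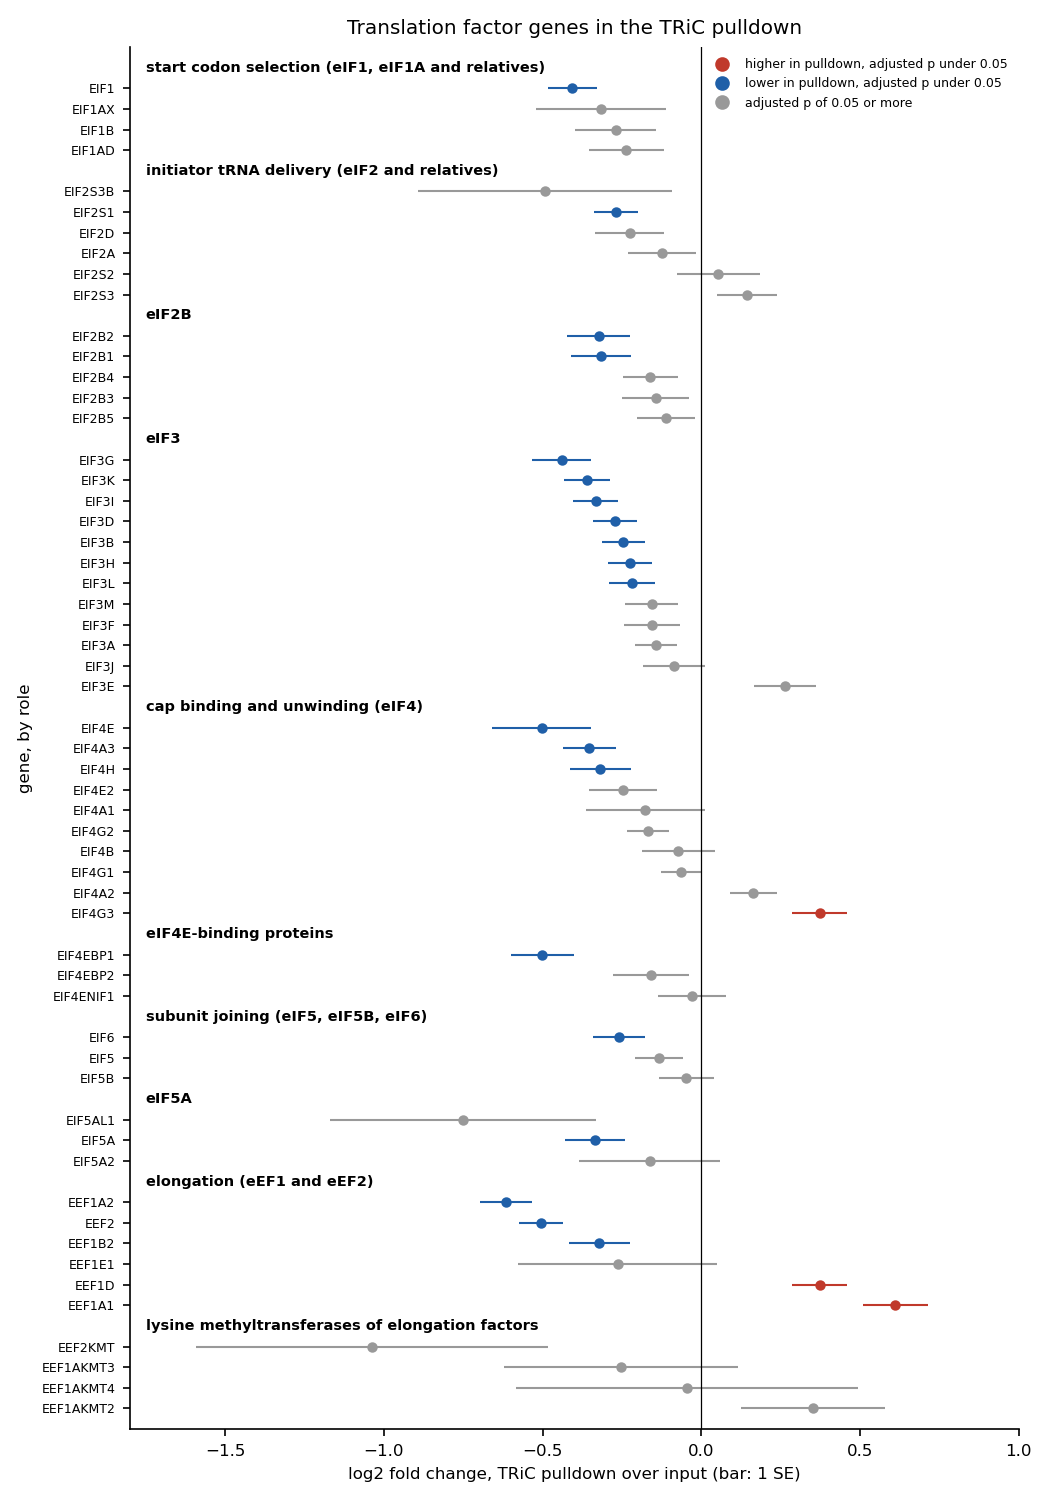
Each point is the log2 fold change of TRiC pulldown over input (x axis) for 1 of 56 translation factor genes, grouped by role, and the bar is 1 standard error (n = 2 libraries a group). Points for 20 genes that fell are blue, those for 3 genes that rose (EEF1A1, EEF1D, EIF4G3) are red, and the other 33 are grey.

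The elongation factors held both the furthest risen and the furthest fallen gene among those that passed. eEF1A, which brings aminoacyl-tRNA to the ribosome, is encoded by the near-identical paralogs EEF1A1 and EEF1A2. EEF1A2 (hg38, chr20:63488013-63499239) stood at 867 and 837 CPM in TRiC inputs and at 616 and 496 CPM in the TRiC pulldowns. Thus the groups did not overlap, with a log2 fold change of -0.61 ± 0.083 (SE, adjusted p = 9.48e-05, edgeR). EEF1A1 (chr6:73489308-73525587) stood at 53.1 and 64.0 CPM in the inputs and at 85.5 and 93.5 CPM in the pulldowns. It moved the other way, again without overlap between the groups, with a log2 fold change of 0.61 ± 0.10 (SE, adjusted p = 0.000595). The ratio of EEF1A1 to EEF1A2 footprints was 0.0613 and 0.0764 before and 0.139 and 0.188 after pulldown.

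The authors kept reads that aligned to 1 place only, and how many EEF1A1 reads that left out was not measured here. As counted, 49 genes annotated as EEF1A1 pseudogenes held 1345 and 1536 counts in the TRiC inputs against 1473 and 1937 counts for EEF1A1 itself. In the TRiC pulldowns the pseudogenes held 1036 and 733 counts and EEF1A1 held 2850 and 2354. Summed, the pseudogenes went from 48.5 and 50.7 to 31.1 and 29.1 CPM with TRiC, where EEF1A1 rose, and from 85.8 and 77.1 to 114 and 119 CPM with PFD, where EEF1A1 was also higher in both pulldowns. How reads were divided between them was not tested.

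eEF2, the GTPase that moves the ribosome on by 1 codon, had the highest footprint density of all 56 genes in both lines. Its gene EEF2 stood at 2618 and 2527 CPM in TRiC inputs and at 1951 and 1673 CPM in the pulldowns. The log2 fold change was -0.51 ± 0.069 (SE, adjusted p = 0.000112), with no overlap between the groups. EEF1B2 and EEF1D encode subunits of eEF1B, which recharges eEF1A with GTP, and they moved in opposite directions. EEF1B2 went from 63.1 and 63.7 CPM to 53.3 and 48.1 CPM, with a log2 fold change of -0.32 ± 0.097 (SE, adjusted p = 0.0269). EEF1D went from 120 and 106 CPM to 140 and 153 CPM, with a log2 fold change of 0.37 ± 0.087 (SE, adjusted p = 0.00637). Exons of genes on the opposite strand cover 34.0% of its exon bases, and which strand was counted is not given in the sources used here. The calls of both were lost without TRiC input replicate 2, with adjusted p of 0.163 for EEF1B2 and 0.183 for EEF1D, and that of EEF1B2 also without TRiC input replicate 1 (0.168) and without TRiC pulldown replicate 2 (0.127). EEF1E1, which encodes a small scaffold protein of the aminoacyl-tRNA synthetase complex, had at most 4.79 CPM in any TRiC library and did not pass (-0.26 ± 0.31, SE). EEF1G, the gene for the remaining eEF1B subunit, was listed at 0 counts in all 8 libraries, and other genes cover 99.7% of its exon bases.

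eIF3, the largest initiation factor, is a scaffold on the small subunit, and 12 of its subunit genes were measured. Of these, 7 (58.3%) fell in the TRiC pulldown, none rose, and 5 did not pass, with a median log2 fold change of -0.22. Among all genes tested, 10.6% fell and 8.64% rose. EIF3G, an RNA-binding subunit, was lowest, at 119 and 124 CPM in the inputs and 97.1 and 81.3 CPM in the pulldowns (log2 fold change -0.44 ± 0.093, SE, adjusted p = 0.00337). EIF3K, a subunit of the structural core, stood at 255 and 265 CPM against 204 and 201 CPM (-0.36 ± 0.073, SE, adjusted p = 0.00249). EIF3I and EIF3B fold into WD40 β-propellers, a domain shared by many TRiC substrates. EIF3I stood at 333 and 340 CPM in the inputs and at 269 and 265 CPM in the pulldowns (-0.33 ± 0.069, SE, adjusted p = 0.00302). EIF3B stood at 568 and 550 CPM against 483 and 460 CPM (-0.25 ± 0.067, SE, adjusted p = 0.0152). In each of these subunits both pulldowns were below both inputs, as for 31.2% of all genes tested.

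The cap-binding subunit gene EIF3D had a log2 fold change of -0.27, and the core subunit genes EIF3H and EIF3L had -0.22 each, with adjusted p of 0.0104, 0.0283 and 0.0448. EIF3B, EIF3D, EIF3H and EIF3L did not pass without either TRiC input replicate (adjusted p from 0.0512 to 0.324), and EIF3L also did not pass without TRiC pulldown replicate 1 (0.0678). Exons of other genes cover 51.8% of those of EIF3L. EIF3A, the largest subunit, had -0.14 ± 0.066 (SE, adjusted p = 0.144), and EIF3F, EIF3J and EIF3M had values from -0.16 to -0.09, and none of the 4 passed. EIF3E, another core subunit, was the 1 eIF3 gene above 0. Its footprints stood at 65.9 and 76.9 CPM in the inputs and at 81.9 and 89.8 CPM in the pulldowns, higher in both pulldowns than in either input, with a log2 fold change of 0.26 ± 0.098 (SE, adjusted p = 0.0669). EIF3C was below the minimum, with 75 counts summed over the inputs, and its near-identical copy EIF3CL had 0 counts.

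Start codon selection and initiator tRNA delivery gave 1 lower call each, among 4 and 6 genes (25.0% and 16.7%), against 10.6% of all genes tested. eIF1 guards against starts at the wrong codon, and EIF1 stood at 202 and 217 CPM in TRiC inputs and at 155 and 161 CPM in the pulldowns (log2 fold change -0.41 ± 0.077, SE, adjusted p = 0.00162). EIF1AX, which encodes the partner factor eIF1A, stood at 8.40 and 8.16 CPM against 6.51 and 6.79 CPM and did not pass (-0.32 ± 0.20, SE, adjusted p = 0.304). All 4 genes for start codon selection were lower in both pulldowns than in both inputs, against 31.2% of all genes tested, with 1 call. eIF2 carries the initiator tRNA, and 1 of its 3 subunit genes passed. EIF2S1, the α subunit phosphorylated by stress kinases, fell from 347 and 358 CPM to 291 and 295 CPM (-0.27 ± 0.069, SE, adjusted p = 0.0113). EIF2S2 (β) and EIF2S3 (γ) had log2 fold changes of 0.05 ± 0.13 and 0.14 ± 0.094 (SE) and did not pass. EIF2S1 did not pass without either TRiC input replicate, with adjusted p of 0.0990 and 0.152.

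eIF2B is the exchange factor that reloads eIF2 with GTP. Its 5 genes all had log2 fold changes below 0, from -0.32 to -0.11. EIF2B1 and EIF2B2 fell, by 19.7% and 20.1% (adjusted p = 0.0275 and 0.0278), whereas EIF2B5, the catalytic subunit gene, had -0.11 ± 0.091 (SE, adjusted p = 0.426). The calls of EIF2B1 and EIF2B2 were lost without either TRiC input replicate (adjusted p from 0.0615 to 0.334) and without TRiC pulldown replicate 2 (0.0815 and 0.133).

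Most products of the eIF4 group act in cap binding or unwinding of the mRNA leader. Among its 10 genes 3 fell (30.0%) and 1 rose (10.0%), against 10.6% and 8.64% of all genes tested. EIF4E, the cap-binding protein itself, stood at 17.6 and 21.2 CPM in the inputs and at 14.8 and 12.6 CPM in the pulldowns (log2 fold change -0.50 ± 0.16, SE, adjusted p = 0.0313). EIF4A3, a helicase of the exon junction complex, stood at 190 and 180 CPM against 154 and 136 CPM (-0.35 ± 0.083, SE, adjusted p = 0.00647). EIF4H, a cofactor of the helicase eIF4A, had -0.32 ± 0.096 (SE, adjusted p = 0.0266). EIF4G3, a paralog of the scaffold eIF4G1, was the gene that rose, from 85.3 and 93.0 CPM to 118 and 113 CPM (0.37 ± 0.086, SE, adjusted p = 0.00580). EIF4G1 itself stood at 1000 and 1003 CPM in the inputs and at 984 and 931 CPM in the pulldowns, a difference of -0.06 ± 0.063 (SE, adjusted p = 0.515).

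The helicase paralogs EIF4A1 and EIF4A2 had log2 fold changes of -0.18 ± 0.19 and 0.16 ± 0.074 (SE), and EIF4B, another eIF4A cofactor, had -0.07 ± 0.11 (SE). None of these 3 passed. EIF4A1 had at most 9.71 CPM in a TRiC library, and other genes, among them the readthrough gene SENP3-EIF4A1, cover 47.4% of its exon bases. EIF4E did not pass without TRiC input replicate 2 (adjusted p = 0.330) or TRiC pulldown replicate 2 (0.102). Without TRiC input replicate 1, EIF4G3 had an adjusted p of 0.128, EIF4A3 of 0.0971 and EIF4H of 0.190, and EIF4H also did not pass without TRiC input replicate 2 (0.0589) or TRiC pulldown replicate 2 (0.211).

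EIF4EBP1, the repressor that sequesters eIF4E when mTOR is inactive, fell from 58.4 and 56.1 CPM to 42.3 and 38.6 CPM (-0.50 ± 0.10, SE, adjusted p = 0.00235). The other two genes of eIF4E-binding proteins were at -0.16 and -0.03 and did not pass. EIF6, which keeps the large subunit from joining too early, stood at 115 and 112 CPM against 93.0 and 96.8 CPM (-0.26 ± 0.083, SE, adjusted p = 0.0362). EIF5 and EIF5B, whose products prompt GTP hydrolysis and subunit joining, had -0.13 ± 0.076 and -0.05 ± 0.087 (SE) and did not pass.

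EIF5A, whose hypusine-bearing product relieves stalled ribosomes, stood at 129 and 133 CPM in the inputs and at 114 and 93.3 CPM in the pulldowns (-0.34 ± 0.094, SE, adjusted p = 0.0180). Its paralog EIF5A2 had at most 11.7 CPM and a value of -0.16 ± 0.22 (SE). EIF5A lost its call without either TRiC input replicate (adjusted p = 0.0633 and 0.0973) or TRiC pulldown replicate 2 (0.148). EIF6 lost its call without either TRiC input replicate (0.293 and 0.165) or TRiC pulldown replicate 1 (0.0509). The 4 genes for methyltransferases of elongation factors had at most 7.63 CPM in any TRiC library, and none passed.

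Coding length moved with these values. Across the 56 genes, Spearman's rho between the number of codons and the log2 fold change in the TRiC pulldown was 0.46, and across 14611 protein-coding genes tested it was 0.35. Genes are not independent replicates, and all points share the same 4 libraries. The 17 translation factor genes under 250 codons had a median log2 fold change of -0.32, and 8 of them fell, against 27.7% of all protein-coding genes of that length. The 4 genes of 1000 or more codons (EIF3A, EIF4G1, EIF4G3 and EIF5B) had a median of -0.06, and none fell and 1 rose, against 2.08% and 23.8% of all such genes. In the same length classes all protein-coding genes had medians of -0.23 and 0.18. The 23 genes from 250 to under 500 codons had a median of -0.16, against -0.10 for all protein-coding genes of that class. The 12 genes from 500 to under 1000 codons had -0.16, against 0.03. In these classes 34.8% and 33.3% of the translation factor genes fell, against 13.2% and 5.88% of all protein-coding genes. In each class 1 rose, or 4.35% and 8.33%, against 4.02% and 7.82%. EEF2, with 858 codons, and EEF1A2, with 463, lay below the lower quartile of their classes, at -0.15 and -0.27. The part of coding length in the falls was not tested.

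**Figure D2:**
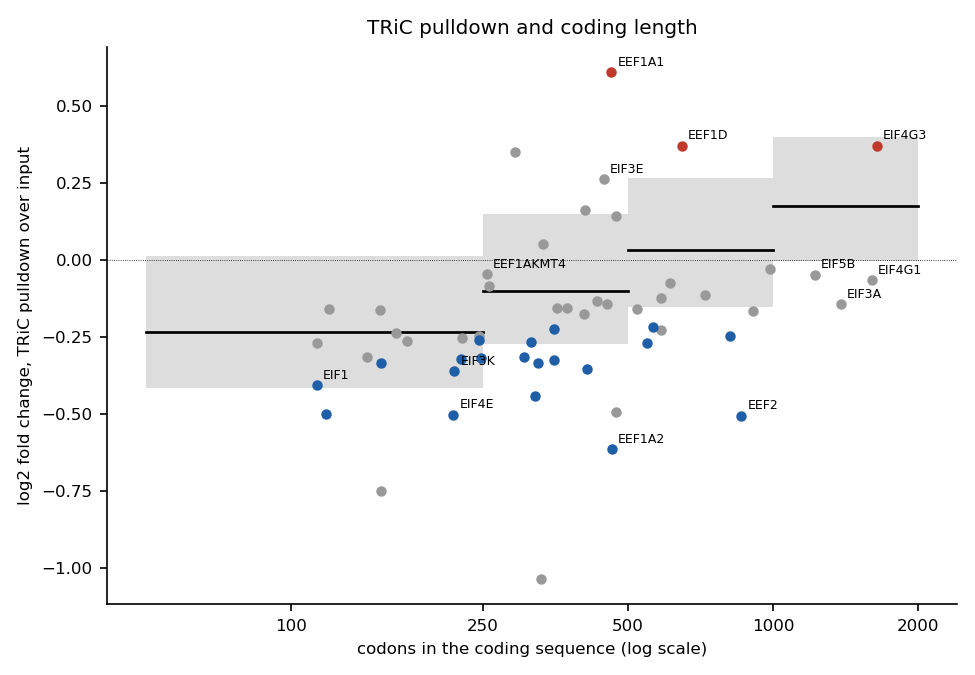
Log2 fold change of TRiC pulldown over input (y axis) against the number of codons (x axis, log scale) for the 56 translation factor genes, coloured as in the plot of all members. Black lines and grey boxes are the median and the middle 50% of all protein-coding genes tested in 4 length classes, with medians of -0.23, -0.10, 0.03 and 0.18 from short to long.

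Genes with and without a pyrimidine start overlapped widely in the TRiC pulldown. The 13 genes with such a start ranged from -0.51 to 0.61 with a median of -0.16, and 4 fell and 1 rose. The 32 genes without one ranged from -0.75 to 0.37 with a median of -0.24, and 11 fell and 1 rose. For all genes tested the shares were 10.6% lower and 8.64% higher. EEF1A1 and EEF2, whose windows are shown above, both start with a run of 7 pyrimidines and stood at 0.61 and -0.51.

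In the PFD pulldown no translation factor gene passed. edgeR called 0 of the 55 tested, against 0.0496% of 14111 genes called higher and 0.191% called lower. At an unadjusted p under 0.05 there were 2 genes higher and 2 lower, or 7.27% of the 55, close to the 6.93% of all genes. DESeq2 called these 4 genes and 3.78% of all genes. In simulated PFD libraries DESeq2 made 42 false calls beside 30 recovered of 200 changed genes. The median log2 fold change was -0.02. Both pulldowns lay below both inputs for 14 genes and above both for 7, against 20.4% and 18.3% of all genes tested. The spread between replicates was wide, with a common dispersion of 0.331, and EIF2S3B was not tested because of its low counts. In simulated PFD libraries edgeR recovered 20 of 200 genes changed 2-fold, drawn at random from all genes tested. Recovery among abundant genes was not counted, so this share does not describe the abundant translation factor genes. The standard error of the log2 fold change was 0.062 for EEF2 and 0.094 for EIF3A, against 1.41 for the scarce EEF1AKMT2. Thus 0 calls do not show that no gene changed.

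The values of these 4 genes, whose number is near that over all genes, lay on either side of 0. EEF1A1 stood at 123 and 113 CPM in the PFD inputs and at 181 and 149 CPM in the PFD pulldowns (log2 fold change 0.48 ± 0.16, SE, adjusted p = 0.702, edgeR). EIF3E stood at 136 and 138 CPM against 194 and 183 CPM (0.46 ± 0.14, SE, adjusted p = 0.653). Both genes were higher in both pulldowns than in both inputs, as they were in the TRiC libraries. EEF1B2 stood at 209 and 177 CPM against 141 and 142 CPM (-0.45 ± 0.15, SE, adjusted p = 0.702). EIF2B1 stood at 74.6 and 89.5 CPM against 45.7 and 56.2 CPM (-0.68 ± 0.23, SE, adjusted p = 0.702). These 2 genes were lower in both pulldowns of both chaperones. All 4 were picked by their PFD values, and the share of all genes that moved 1 way with both chaperones was not counted.

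The log2 fold changes of EEF2, EIF4G1, EIF3B and EIF3I in the PFD pulldown were small. Both pulldowns lay above both inputs for EEF2, EIF3B and EIF3I, as for 18.3% of all genes tested, but not for EIF4G1. EEF2 stood at 4356 and 4527 CPM in the PFD inputs and at 4936 and 4641 CPM in the pulldowns (log2 fold change 0.11 ± 0.062, SE). EIF4G1 stood at 1377 and 1421 CPM against 1418 and 1506 CPM (0.06 ± 0.077, SE). EIF3B and EIF3I had 0.12 ± 0.087 and 0.14 ± 0.11 (SE), and the 12 eIF3 genes together a median of 0.02. EEF1D, at 243 and 242 CPM in the inputs, had 346 and 262 CPM in the pulldowns (0.32 ± 0.15, SE). EEF1D, EIF4G1 and the genes that follow differed more between the 2 pulldowns than between the group means. EIF4EBP1 stood at 15.4 and 46.2 CPM in the pulldowns against 49.6 and 46.5 CPM in the inputs. EEF1A2 stood at 223 and 139 CPM against 134 and 156 CPM, and EIF4A2 at 192 and 135 CPM against 145 and 125 CPM. The abundant EIF4G2 had 826 and 531 CPM in the pulldowns against 659 and 664 CPM in the inputs. Without PFD pulldown replicate 2, 8 genes were called higher and 7 lower, against 7.0% and 8.76% of all genes, and without PFD pulldown replicate 1, 2 were called lower and 0 higher, against 1.66% and 0.688%. The pulldown is then 1 library, whose spread is taken to be that of the inputs.

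**Figure D3:**
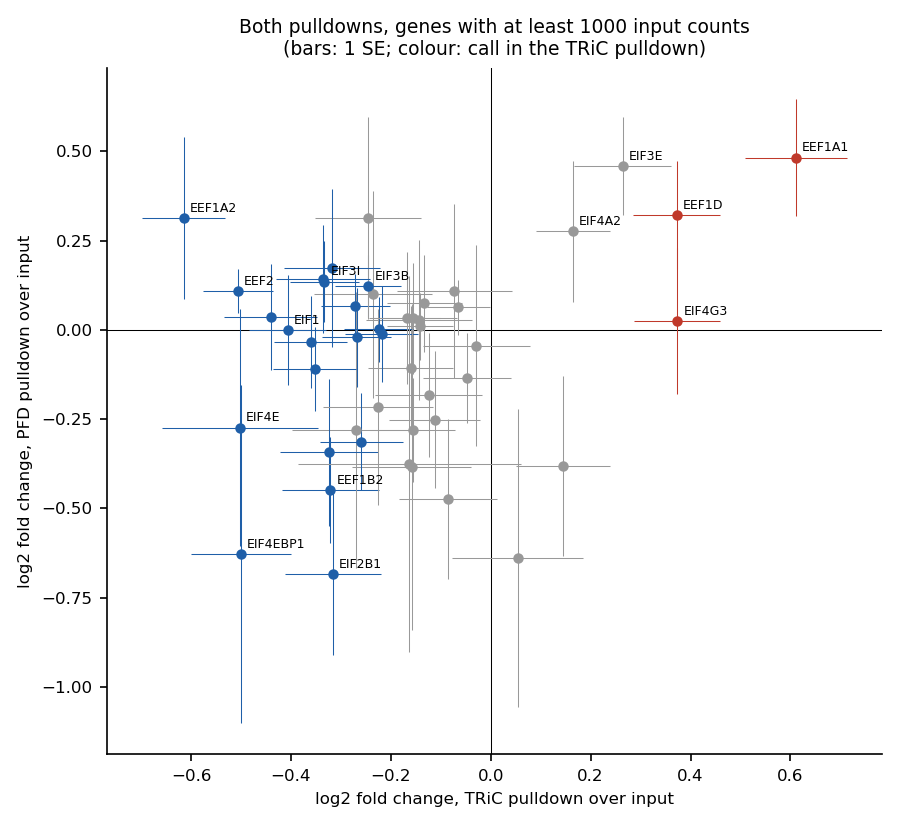
Log2 fold change over input in the TRiC pulldown (x axis) and in the PFD pulldown (y axis) for the 47 translation factor genes with at least 1000 counts summed over the inputs. Bars are 1 standard error and colours are the call in the TRiC pulldown. EEF1A1 lies high on both axes, at 0.61 and 0.48, while EEF2 and EEF1A2 lie below 0 on the x axis and above 0 on the y axis, where no gene passed.

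Whether the 2 chaperones differed was tested by an interaction term fitted to all 8 libraries. None of the 56 genes passed in edgeR, against 0.0371% of 18855 genes. In simulated data this test recovered 1 of 363 genes changed 2-fold, drawn at random from the genes tested and not counted apart for abundant genes. The absence of calls thus does not show that the chaperones acted alike. At an unadjusted p under 0.05 there were 8 genes, each less enriched with TRiC than with PFD, or 14.3% of the 56, close to the 14.8% of all genes. DESeq2 called 5 of the 56 genes, all lower, and 5.22% of all genes, with 2.76% lower. EEF2 had the smallest p among these, with a difference in log2 fold change of -0.60 ± 0.12 (SE, adjusted p = 0.143). For EEF1A2 the difference was -0.91 ± 0.26 (adjusted p = 0.210), for EIF3I -0.45 ± 0.13 (0.203) and for EIF3B -0.35 ± 0.098 (0.202). EIF3D, EIF3G, EIF3K and EIF5A had differences of -0.33, -0.47, -0.31 and -0.46, with adjusted p from 0.252 to 0.331. The falls of EEF2, EEF1A2 and the eIF3 genes in the TRiC pulldown are thus not shown to differ from their values in the PFD pulldown by the edgeR test. Without PFD pulldown replicate 2 the test called 4 genes higher and 6 lower, against 11.6% and 6.73% of all genes, and without PFD pulldown replicate 1 it called 1 higher and 1 lower, against 2.93% and 2.69%.

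Input levels are footprint densities, given as CPM per 1000 codons so that genes of different length can be set side by side. They rest on reads that aligned to 1 place only. How far this lowered genes with near-identical copies was not measured, so the order is not a ranking of translation. EEF2 led in both lines, at 2999 ± 75.2 in the TRiC and 5177 ± 141 in the PFD inputs (SD, n = 2). In the TRiC inputs EIF1 (1855 ± 94.2) and EEF1A2 (1840 ± 45.3) followed and did not differ beyond their spread, and EIF3K (1193 ± 34.0) and EIF2S1 (1119 ± 23.3) came next. In the PFD inputs EIF3H (1765 ± 29.8) and EIF1 (1583 ± 154) followed, and then EIF5A (1242 ± 174), EIF2S1 (1236 ± 135) and EIF3I (1184 ± 105), which did not differ beyond their spread. EIF4G1 stood at 626 ± 1.03 and 875 ± 19.6, above EIF4E, its partner in eIF4F, at 89.4 ± 11.95 and 153 ± 26.5. EEF1A1 ranked 38 of the 56 genes for TRiC inputs and 32 for PFD inputs, on the reads that aligned to 1 place only.

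The tables of both lines were made separately, and their levels are set side by side without a test. Per 1000 codons, the median ratio of the TRiC to the PFD input over the 47 genes with at least 1000 summed input counts was 0.705, and the rank order was similar (Spearman's rho 0.90 across these genes). EEF1A2 stood apart at a ratio of 5.86, with 24031 and 25351 counts in the TRiC inputs and 2593 and 1622 in the PFD inputs. The next highest ratio among these genes was 1.66, for EIF4EBP2, and the lowest was 0.329, for EEF1B2. The ratio of EEF1A1 to EEF1A2 footprints was 0.915 and 0.721 in the PFD inputs, against 0.0613 and 0.0764 in the TRiC inputs.

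The subunits of eIF3, which mostly occur once in the complex, spanned a wide range of footprint density. Over 12 genes, the highest was 7.43-fold above the lowest in the TRiC inputs and 6.59-fold in the PFD inputs, with medians of 551 and 827 CPM per 1000 codons. EIF3K was highest in the TRiC inputs and EIF3H in the PFD inputs. EIF3E, at 160 ± 17.6 and 308 ± 3.19 (SD, n = 2), and EIF3J, the loosely bound subunit, at 189 ± 1.96 and 268 ± 2.61, were lowest. Replicates differed far less than subunits did.

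Other genes of the translation machinery were counted in the same fits. Of 57 genes in 4 lists, 10 (17.5%) fell and 1 (1.75%) rose, with a median log2 fold change of -0.08, beside the 10.6% and 8.64% of all genes. Of 8 genes for termination and recycling, 3 fell. Of 18 cap, poly(A) and 40S accessory genes, 3 fell, among them RACK1, a WD40 protein of the 40S subunit, at 883 ± 18.3 CPM in the inputs and 639 ± 48.4 CPM in the pulldowns (SD, n = 2; -0.47 ± 0.068, SE, adjusted p = 0.000202). Of 20 regulators and modifying enzymes, 2 fell, a share of 10.0% that is near the one over all genes, and 1 rose, with DOHH, the last enzyme of hypusine synthesis on eIF5A, at -0.74 ± 0.15 (SE, adjusted p = 0.00248) and EIF2AK3, the PERK kinase of eIF2α, at 0.33 ± 0.11 (SE, adjusted p = 0.0364). Of 11 mitochondrial translation factors, 2 fell, with MTRFR, a mitochondrial release factor, at -0.51 ± 0.13 (SE, adjusted p = 0.0132). None of the 56 of these genes tested in the PFD pulldown passed in edgeR, with 1 higher and 3 lower at an unadjusted p under 0.05 (7.14%, against 6.93% of all genes), and DESeq2 called 1 of them, lower.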

How the data were processed

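Selective ribosome profiling libraries of 2 U-2 OS lines were analysed as counts per gene. Per the labels and the methods, the authors trimmed and demultiplexed reads, used UMI-tools for unique molecular identifiers, discarded non-coding RNA with Bowtie2 2.4.2 and aligned to hg38 with STAR 2.7.10a, keeping unique alignments. The deposited counts are whole numbers without normalization, in 1 table per line; the annotation release and the strand column are not given in the sources used here. Of 60664 identifiers, 60463 matched GENCODE 44, which gave names, positions and coding lengths, and 201 did not.

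Pulldown was compared with input in each line, over all genes, with edgeR 4.0.16 in R 4.3.3 (TMM, filterByExpr, quasi-likelihood test, Benjamini-Hochberg adjusted p under 0.05, no replicate block), and the difference as an interaction over 8 libraries. CPM values use TMM library sizes. Totals of 9523128 to 32637658 counts make counting error small for abundant genes, so the spread between 2 replicates limits precision. The scripts were tested on simulated data with 2-fold changes in the pulldown, in genes drawn at random from those tested. edgeR recovered 130 of 200 changed genes with TRiC, 20 of 200 with PFD, and 1 of 363 with the interaction. Alternatives were DESeq2 1.42.0, a replicate block, RLE factors, library totals, cyclic loess with limma 3.58.1, other filters, all 8 libraries in one fit, and each library left out.

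The members and lists were chosen with earlier results of these data known. Genes named with values were a set of core factors and, in each comparison, the 10 highest and 10 lowest called members; EIF3E, EIF4EBP2 and the lowest members of the difference were named after their values were seen, as was the choice of PFD values printed.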

Additional observations from a re-analysis of the deposited data

How the results depend on the processing

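For the TRiC pulldown, the 20 lower genes became 9 with cyclic loess, 8 with library totals, 0 with all 8 libraries in one fit and between 8 and 20 when a library was left out; the 3 higher genes became 5 with cyclic loess, 5 with at least 100 counts in every library, 5 with a replicate block, 0 with all 8 libraries and between 2 and 4 with a library left out. The shared fit uses the wider spread of the PFD libraries. The median of the members, -0.23, was -0.21 with RLE size factors, -0.13 with at least 100 counts in every library, -0.16 with cyclic loess, -0.18 with library totals and between -0.24 and -0.19 with a library left out. In the PFD pulldown, 0 calls became 2 higher and 2 lower with DESeq2 and 0 to 8 higher and 0 to 7 lower with a library left out, and the median of -0.02 ranged from -0.13 to 0.017 with a library left out. For the difference between pulldowns, 0 calls became 5 lower with DESeq2, 2 lower without a filter, and 0 to 4 higher and 0 to 6 lower with a library left out. With library totals the median input level of the members moved by less than its replicate SD, but 12 of 56 single genes in the TRiC and 6 of 56 in the PFD table moved by more than theirs, by -1.86 to -1.04% and 0.814 to 1.08%.

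Signs changed for EIF4G1 (0.10 with cyclic loess), EIF5B (0.067 with cyclic loess, 0.017 with at least 100 counts in every library, -0.16 to 0.063 with a library left out) and EIF5A2 (-0.52 to 0.13 with a library left out) in the TRiC pulldown, and for EEF1A2 in the PFD pulldown (-0.062 to 0.61 with a library left out). Of the 432 TRiC values of named members under alternatives, 425 kept their sign. The cause of these shifts was not tested.

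Deviations of same-numbered libraries correlated at 0.16 for TRiC and -0.10 for PFD, and with 2 pairs the numbers are not shown to pair them. With a replicate block the TRiC pulldown had 24 lower and 5 higher members, and the PFD pulldown and the difference had 0. The share over all genes was not counted with the block. Nothing in the labels says which libraries were made together, and p-values measure the spread between 2 replicates, or that of the other group alone where a library is left out.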
